A study of Mus musculus with 19 samples.

Results

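Collagens are the main structural proteins of the extracellular matrix, and their genes were described here across dorsal root ganglia of 4 groups of mice. The members are the genes of the authors' table of counts and FPKM whose symbol has the form of a collagen chain, Col followed by a type number, the letter a and a chain number, with any count. There were 44 such genes among the 36682 genes of that table. Of these, 11 encode chains of fibrillar collagens, 6 encode chains of type IV, the collagen of basement membranes, and 27 belong to other types. All 44 passed the filter on low counts, which left 22778 genes for testing, so no member is missing from the counts of tests below.

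Each collagen molecule is a triple helix of chains, made in the endoplasmic reticulum, where prolines and lysines are hydroxylated before the helix closes. Types I, III and V assemble outside the cell into fibrils, type IV forms the sheet-like network of basement membranes around vessels, Schwann cells and satellite glia, and type VI forms beaded filaments between fibrils and basement membranes. In nerve and ganglion, fibroblasts of the connective tissue sheaths are known as the main source of types I and III, endothelial cells, pericytes and glia as sources of type IV, and glia of the peripheral nervous system as a source of type XXVIII.

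The data were bulk RNA sequencing of ganglia L3 to L5, pooled within a mouse, from male mice homozygous for the MaFIA transgene (macrophage Fas-induced apoptosis). The transgene is known to be driven by the Csf1r promoter and to let the dimerizing compound AP20187 kill the cells that express it, macrophages and other myeloid cells among them. All 4 groups carried it, so no group lacked the transgene. There were 10 DMM mice, 5 given AP20187 and 5 given vehicle, and 9 naive mice, 4 given AP20187 and 5 given vehicle. DMM is surgical destabilization of the medial meniscus of the knee, a model of osteoarthritis, and ganglia were taken from the operated side. Injections were intraperitoneal and daily for 5 days, in DMM mice at 8 weeks after surgery, and naive mice were matched for age without surgery. The age itself is not given in the sources used here. A library is named by its group and mouse number, and values of a group are listed in the order of those numbers: 58 to 62 for AP20187 and 32, 33, 34, 63 and 64 for vehicle in DMM, and 1, 3, 4 and 5 for AP20187 and 1 to 5 for vehicle in naive mice.

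Libraries held 60984830 to 74691396 counts. All 10 sensory neuron markers were detected in each group, measured in CPM, counts scaled to library size with trimmed mean of M values (TMM) factors. Csf1r, the gene whose promoter drives the transgene, gave log2 differences between AP20187 and vehicle of -0.02 (SE 0.46, adjusted p 0.982) in DMM mice and 0.45 (SE 0.48, adjusted p 0.554) in naive mice, and the groups are named by their labels, not by a loss of macrophages. Marker sums of several cell types are given here as the range after AP20187 against that after vehicle. The 9 macrophage genes were at 228 to 968 against 150.2 to 615 CPM in DMM and 443 to 753 against 81.0 to 448 CPM in naive mice, with 1 and 3 of them passing as higher by edgeR, 4 and 6 by DESeq2 and 7 and 7 by limma voom. The 10 marrow granulocyte genes were at 15056 to 25772 against 355 to 6740.3 CPM in DMM and 6929 to 24439.7 against 718 to 1978 CPM in naive mice, with 9 and 10 passing as higher. The sensory neuron sum was at 1971 to 7196 against 5660.1 to 14063 CPM in DMM and 2293 to 11199.6 against 8129 to 15973 CPM in naive mice, with 6 passing as lower in DMM. In naive mice edgeR called none of these neuron genes, with 2 at an unadjusted p under 0.05, 1 called by DESeq2 and 3 by limma voom. The 8 skeletal muscle genes were at 19.3 to 153 against 16.9 to 2011 CPM in DMM and 1715 to 2654 against 14.4 to 465 CPM in naive mice, where DMM vehicle mouse 32 alone held the upper value of its group and the other 4 were at 16.9 to 252 CPM. Of these muscle genes edgeR called 2 as lower in DMM and 4 as higher in naive mice, DESeq2 6 and 7 and limma voom 0 and 8, in the same directions. Since CPM are shares of a library, fewer cells of a type and less RNA per cell cannot be told apart.

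The 3 DMM vehicle mice 32 to 34 and the 2 numbered 63 and 64 stood apart for many collagen genes, and the labels name no batch. The AP20187 differences in DMM and the members named for DMM against naive with vehicle are therefore also given against each of these sets, a comparison that was planned with earlier results of these data known.

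The sequences below are of some of the members described in the results. Other called members, Col9a2 and Col7a1 among them, are not shown. Col28a1, Col8a1 and Col5a1 were called in DMM, and Col1a2 and Col3a1 varied from library to library with Col1a1. Each is the stretch of 150 bases before the RefSeq start of the gene, 5' to 3' on the gene's strand, in build GRCm38.p6. Col1a1 had no entry. Capitals mark matches, on either strand, to the letters TATAAA of the TATA box. They also mark the box known by its own letters, CCAAT, and the GC box, with letters GGGCGG.
Col28a1 (chr6:8192618-8192767, strand minus): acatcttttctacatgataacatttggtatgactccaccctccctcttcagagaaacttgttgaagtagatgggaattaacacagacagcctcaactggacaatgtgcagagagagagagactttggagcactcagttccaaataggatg
Col8a1 (chr16:57754738-57754887, strand minus): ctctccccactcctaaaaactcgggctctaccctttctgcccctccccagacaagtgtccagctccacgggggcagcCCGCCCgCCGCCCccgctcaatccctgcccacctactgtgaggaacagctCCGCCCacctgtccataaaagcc
Col5a1 (chr2:27886275-27886424, strand plus): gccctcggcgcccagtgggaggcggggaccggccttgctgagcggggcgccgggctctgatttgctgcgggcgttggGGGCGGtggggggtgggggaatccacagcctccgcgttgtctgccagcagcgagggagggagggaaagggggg
Col1a2 (chr6:4505468-4505617, strand plus): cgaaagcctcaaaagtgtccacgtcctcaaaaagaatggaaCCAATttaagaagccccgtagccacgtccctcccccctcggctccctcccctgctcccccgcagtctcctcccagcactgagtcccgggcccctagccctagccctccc
Col3a1 (chr1:45311388-45311537, strand plus): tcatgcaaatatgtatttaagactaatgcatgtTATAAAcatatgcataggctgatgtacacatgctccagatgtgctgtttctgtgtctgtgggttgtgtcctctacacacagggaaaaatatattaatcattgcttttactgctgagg
The window of Col28a1 held none of the 3 motifs and was 42.7% G and C. That of Col8a1 held 3 GC boxes and that of Col5a1 1 GC box, with 64.7% and 74.7% G and C. Col1a2 had a CCAAT box, and Col3a1 had a TATA box whose first base lay 117 bases before the start. Among the 38 windows of the 35 members in the RefSeq table, 50.0% held a GC box, 21.1% a CCAAT box and 10.5% a TATA box. Over all 32851 windows of the same length the shares were 28.6%, 24.5% and 7.57%. Matches to different motifs may overlap at their ends, and a match is a description of letters only.

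The genes Col4a1 and Col4a2 start head to head on opposite strands of chromosome 8, and they overlap by 22 bases in the authors' table. The same overlap in GRCm38.p6, shown because these 2 chains form 1 molecule and are compared as a pair below, holds 1 GC box in capitals on the plus strand.
Col4a1 and Col4a2 (chr8:11312805-11312826, strand plus): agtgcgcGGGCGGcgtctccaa
Col4a3 and Col4a4 likewise start 71 bases apart, and Col4a5 and Col4a6 start 1308 bases apart on the X chromosome.

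Levels are compared between genes in FPKM, which are scaled to gene length and library size. Over the 19 libraries the mean was 23.8 FPKM for Col1a2, 22.1 for Col1a1 and 21.5 for Col3a1, the chains of types I and III. Col6a1 was at 20.7, Col6a2 at 11.8, Col28a1 at 11.6, Col4a1 at 10.8 and Col4a2 at 7.99 FPKM. The order of Col1a2, Col1a1, Col3a1 and Col6a1 did not hold against the spread over libraries, which ran from 9.15 to 56.4 FPKM for Col1a2. Nor did it hold in each group, since the group mean of Col6a1 lay above that of Col1a1 in DMM with AP20187 (23.6 and 22.0 FPKM), above that of Col1a2 in naive with AP20187 (19.7 and 18.6) and above that of Col3a1 in naive with vehicle (20.0 and 16.9). The other 8 fibrillar chains ranked 11 to 28 of the 44. At the low end were Col9a1 at 0.031, Col6a4 at 0.035, Col4a6 at 0.048 and Col17a1 at 0.059 FPKM. Col9a1 had no count in 10 of 19 libraries and Col17a1 in 4, and a count of 0 allows up to 3 counts in a library, or 0.0400 to 0.0519 CPM.

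Summed over the 44 genes, DMM libraries held 149 to 280.1 FPKM of collagen after AP20187 and 147 to 370.3 after vehicle, and naive libraries 151 to 249 and 102 to 308. The ranges of all 4 groups overlapped, and the widest were those of the vehicle groups. Fibrillar chains made up 40.5% to 47.8% of this level after AP20187 and 39.5% to 53.1% after vehicle in DMM, and 35.5% to 43.5% and 38.4% to 43.7% in naive mice. Type IV chains made up 7.33% to 12.2% and 5.68% to 11.7% in DMM, and 11.6% to 13.6% and 7.32% to 12.3% in naive mice. Total FPKM of all genes also differed between libraries, from 290279 to 444088, so sums of FPKM are not on exactly the same scale in each. Of the counts of a library, collagen genes took 0.126% to 0.242% after AP20187 and 0.117% to 0.307% after vehicle in DMM, and 0.137% to 0.228% and 0.0795% to 0.259% in naive mice.

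**Figure D1:**
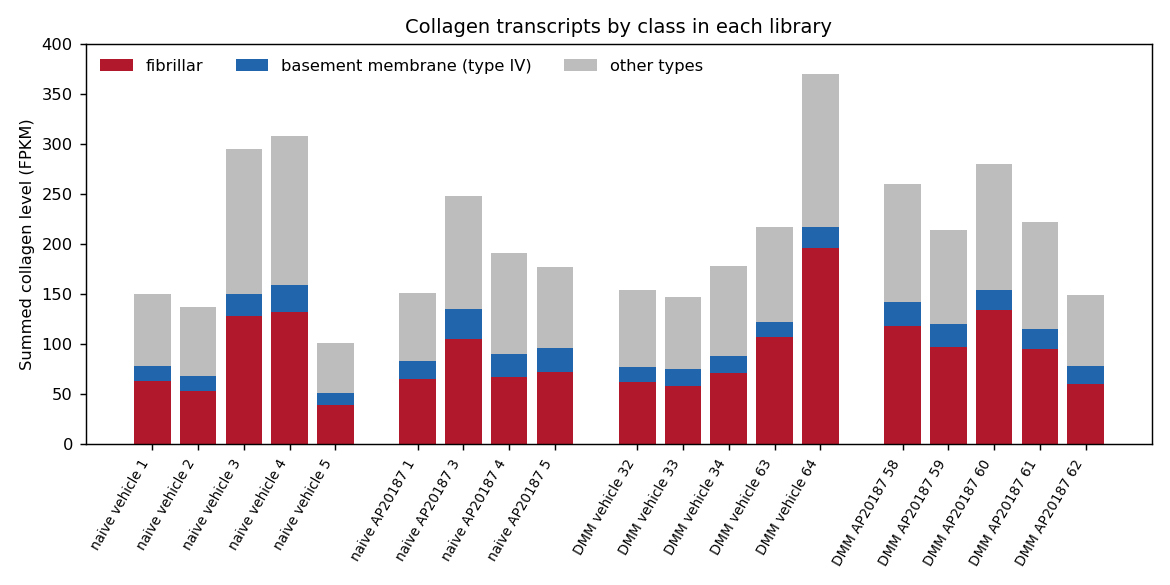
Summed level (FPKM) of the fibrillar (red), basement membrane type IV (blue) and other (grey) collagen genes in each of the 19 libraries, as stacked bars by group. The highest library is DMM vehicle 64 at 370.3 FPKM and the lowest naive vehicle 5 at 102 FPKM, both in vehicle groups.

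The first comparison asked how AP20187 changed collagen transcripts in mice with DMM. Of the 44 genes, 5 passed the edgeR test at an adjusted p under 0.05, where 23.8% of all tested genes passed. Col5a1 and Col8a1 were higher with AP20187 (11.3% of all genes were) and Col28a1, Col9a2 and Col23a1 were lower (12.4% of all genes were). The count of 5 was 11 with DESeq2 and 15 with limma voom with sample weights, and 1 to 6 in edgeR fits that left out 1 library. The count over all genes rose with limma voom too, as given in the closing section, so these member counts are not read alone. No order is read from the shares of members and of all genes. The median log2 fold change of the 44 was -0.08 and that of all genes -0.10, and 12 members had an unadjusted p under 0.05. The share of all genes at that unadjusted level is not given here, but it cannot be below the 23.8% that passed after adjustment. The 12 are therefore not read as a result about the members. In 3 members the 2 groups did not overlap, where this was so for 12.9% of all genes. Col8a1 and Col4a1 lay above vehicle (8.71% of all genes did) and Col27a1 below it (4.18% did).

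In naive mice 4 of 44 members passed, where 11.2% of all tested genes did. Col4a2 and Col14a1 were higher with AP20187 (8.61% of all genes were) and Col7a1 and Col9a3 were lower (2.57% of all genes were). The median was 0.06, against -0.07 over all genes. The groups did not overlap in 7 members, and in each of these the AP20187 libraries lay below vehicle: Col5a3, Col11a1, Col9a2, Col9a3, Col16a1, Col19a1 and Col7a1. Over all genes 15.5% did not overlap, 6.15% lying below and 9.39% above vehicle. The count was 6 with DESeq2 and 8 with limma voom, and 1 to 8 in edgeR fits that left out 1 library. Over all genes the count rose with both of these tools too, as given in the closing section. No member was called in both comparisons by edgeR. DESeq2 called Col14a1 as higher and Col9a3 as lower in both, and limma voom called Col4a1, Col5a1, Col8a1 and Col14a1 as higher in both. Whether the 2 differences of a member differ is given with the interaction below.

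**Figure D2:**
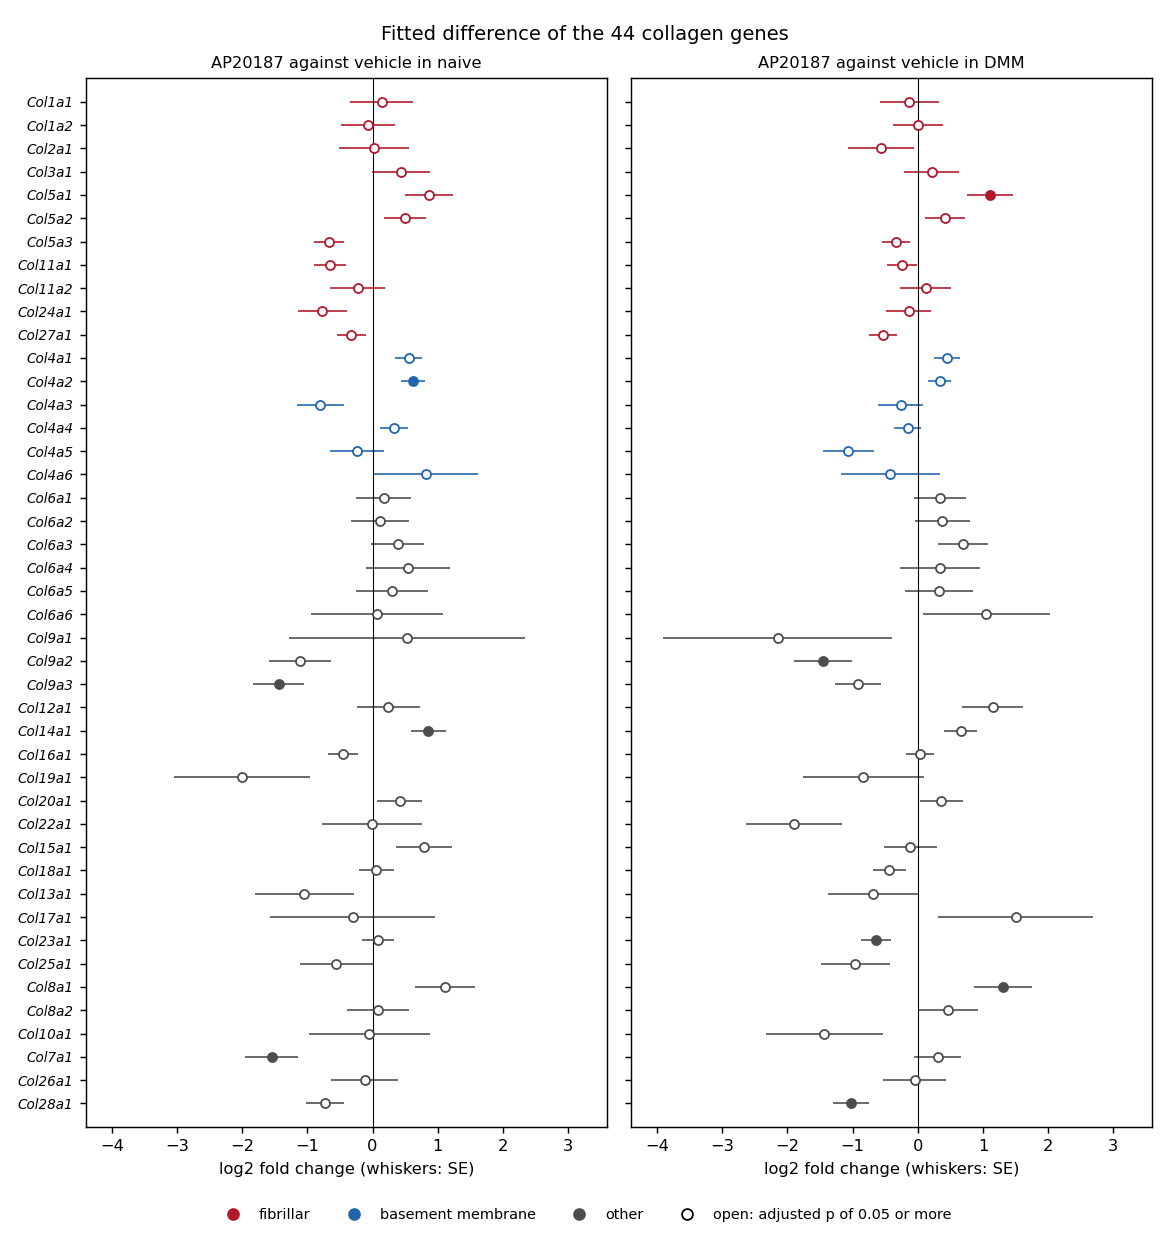
Log2 fold change of AP20187 against vehicle (points, with SE as whiskers) for the 44 collagen genes in naive mice (left) and DMM mice (right), coloured by class, filled where the adjusted p is under 0.05. Filled points are Col4a2, Col9a3, Col14a1 and Col7a1 on the left and Col5a1, Col9a2, Col23a1, Col8a1 and Col28a1 on the right.

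Among the fibrillar chains, Col1a1 (chromosome 11, 94827050 to 94843868 in the authors' table, build GRCm39 per the submitters' processing notes) and Col1a2 (chromosome 6, 4504814 to 4541544) encode the 2 chains of type I. Col1a1 was at 164, 138, 202, 131 and 97.0 CPM in DMM mice given AP20187 and at 86.6, 79.1, 88.7, 199 and 350.2 CPM in those given vehicle. Naive mice had Col1a1 at 137, 233, 125 and 127 CPM after AP20187 and at 93.6, 78.5, 211, 273 and 48.7 CPM after vehicle. Every AP20187 library lay within the range of vehicle in both comparisons, and the vehicle groups were wide: the highest library was 4.43 times the lowest in DMM and 5.60 times in naive mice, against 2.09 and 1.86 times with AP20187. The log2 fold change was -0.13 (SE 0.45, adjusted p 0.869) in DMM and 0.14 (SE 0.48, adjusted p 0.866) in naive mice.

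Col1a2 was at 411, 319.9, 426, 304 and 185 CPM in DMM mice given AP20187 and at 218, 194, 211, 365 and 661 CPM in those given vehicle. Naive mice had Col1a2 at 229, 356, 266 and 228 CPM after AP20187 and at 206, 185, 440.3, 467 and 117 CPM after vehicle. The groups overlapped, with log2 fold changes of -0.00 (SE 0.38, adjusted p 0.999) and -0.07 (SE 0.41, adjusted p 0.926). Col3a1 (chromosome 1, 45350698 to 45388866) encodes the single chain of type III, found with type I in loose connective tissue. Col3a1 was at 303, 218, 331, 276 and 166 CPM in DMM mice given AP20187 and at 145, 108, 134, 275 and 456 CPM in those given vehicle. Naive mice had Col3a1 at 205, 339, 159 and 208 CPM after AP20187 and at 118, 99.3, 286, 278 and 62.3 CPM after vehicle. The same libraries were high as for Col1a1, mice 63 and 64 in DMM with vehicle and mice 3 and 4 in naive with vehicle. The log2 fold changes of Col3a1 were 0.21 (SE 0.42, adjusted p 0.766) and 0.43 (SE 0.45, adjusted p 0.534).

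Col5a1 (chromosome 2, 27776437 to 27929526) encodes a chain of type V, which sits inside type I fibrils and is known to start and limit their growth. Col5a1 was at 80.6, 53.4, 74.3, 54.3 and 74.0 CPM in DMM mice given AP20187 and at 18.7, 21.0, 28.3, 32.9 and 54.7 CPM in those given vehicle. Naive mice had Col5a1 at 52.5, 65.5, 45.6 and 27.7 CPM after AP20187 and at 18.2, 17.3, 34.8, 48.9 and 12.5 CPM after vehicle. In DMM 4 of 5 vehicle libraries lay below all AP20187 libraries, and vehicle mouse 64 overlapped them at its lower end. Col5a1 rose by 1.11 (SE 0.35, adjusted p 0.0299) on the log2 scale in DMM and differed by 0.86 (SE 0.37, adjusted p 0.131) in naive mice, where the groups overlapped. The DMM call was lost in 6 of 10 fits that left out 1 library each (adjusted p 0.00563 to 0.0774). Col5a2, its partner in the common form of type V, differed by 0.41 (SE 0.31, adjusted p 0.350) and 0.50 (SE 0.32, adjusted p 0.302).

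The other fibrillar chains did not pass the edgeR test in either comparison. In DMM DESeq2 called Col27a1 as lower beside Col5a1, and limma voom called Col3a1 and Col5a2 as higher beside it. Col5a3, a further chain of type V known from Schwann cells, and Col11a1, of the cartilage type XI, both lay below vehicle in each naive AP20187 library, with log2 fold changes of -0.67 (SE 0.23, adjusted p 0.0715) and -0.65 (SE 0.24, adjusted p 0.0899). In DMM they overlapped, at -0.33 (SE 0.22, adjusted p 0.285) and -0.25 (SE 0.23, adjusted p 0.470). Col27a1, of a fibrillar type of cartilage, lay below vehicle in each DMM AP20187 library at 3.68 to 8.27 CPM against 8.82 to 11.2, with -0.53 (SE 0.21, adjusted p 0.0741). Col2a1, the chain of cartilage type II, was at 1.07 to 8.80 CPM over all libraries. In naive mice the count of fibrillar chains called by edgeR was 0 of 11, with 3 at an unadjusted p under 0.05; DESeq2 called Col5a3, and limma voom with sample weights called Col5a1 and Col5a3.

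Markers of fibroblasts, the cells best known for types I and III, were summed in the same libraries. The 10 fibroblast genes summed to 2429.7 to 7462 CPM after AP20187 and 1339.9 to 8061 after vehicle in DMM mice, and to 3367 to 6459 against 1023 to 4809 in naive mice, with none at 0. Of these 10, 2 passed as higher in DMM (Fbln1 and Pi16), where DESeq2 called 2 and limma voom 7. In naive mice none did, with 3 at an unadjusted p under 0.05 and 2 called by DESeq2 and 3 by limma voom. Their part in the levels of Col1a1, Col1a2, Col3a1 and Col5a1 was not tested.

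**Figure D3:**
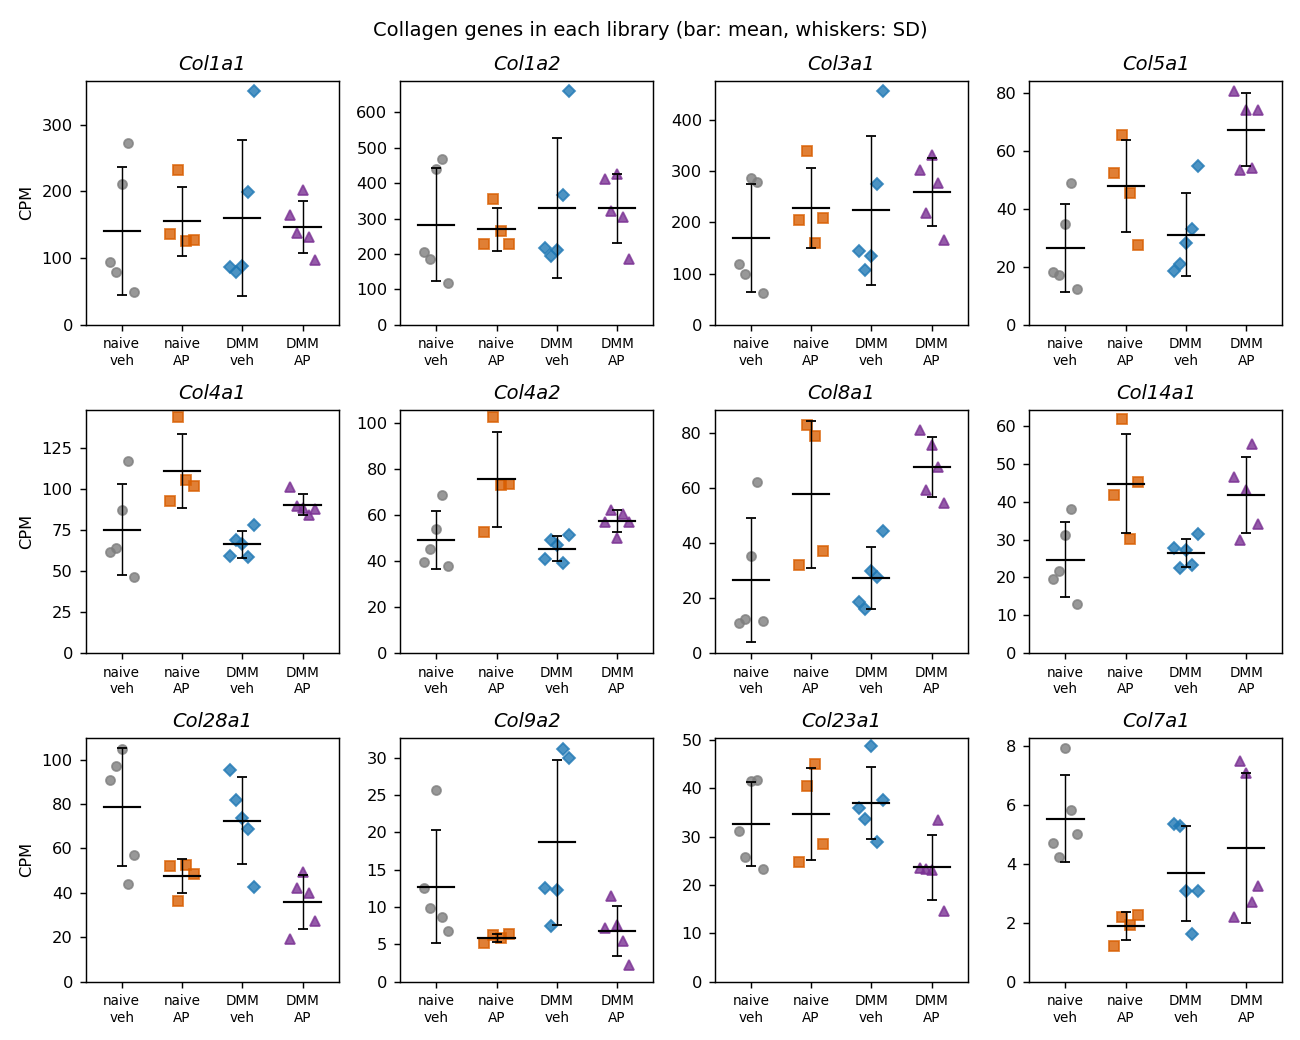
CPM of 12 collagen genes in each library by group (naive vehicle, naive AP20187, DMM vehicle, DMM AP20187), with the group mean as a bar and the SD as whiskers. Col8a1 and Col4a1 in DMM with AP20187 lie above all DMM vehicle libraries, Col7a1 in naive with AP20187 lies below all naive vehicle libraries, and Col1a1, Col1a2 and Col3a1 overlap throughout.

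Of the basement membrane chains, Col4a1 (chromosome 8, 11248423 to 11362826) and Col4a2 (chromosome 8, 11362805 to 11499287) encode the chains of the most common form of type IV. Col4a1 was at 102, 90.1, 89.0, 84.4 and 88.3 CPM in DMM mice given AP20187 and at 59.3, 69.3, 66.6, 58.7 and 78.3 CPM in those given vehicle. Naive mice had Col4a1 at 93.1, 144, 106 and 102 CPM after AP20187 and at 62.0, 64.6, 87.2, 118 and 46.4 CPM after vehicle. In DMM each AP20187 library lay above each vehicle library, while in naive mice vehicle mouse 4 lay above 3 of 4 AP20187 libraries. The log2 fold change of Col4a1 was 0.45 (SE 0.20, adjusted p 0.103) in DMM and 0.56 (SE 0.21, adjusted p 0.0882) in naive mice, neither past the threshold.

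Col4a2 was at 57.0, 62.3, 49.9, 60.2 and 57.1 CPM in DMM mice given AP20187 and at 40.8, 49.0, 47.1, 39.1 and 51.1 CPM in those given vehicle. Naive mice had Col4a2 at 52.7, 102, 73.0 and 73.2 CPM after AP20187 and at 39.7, 45.1, 54.0, 68.5 and 38.0 CPM after vehicle. The DMM groups overlapped in 1 library of each, and in naive mice vehicle mice 3 and 4 lay above the lowest AP20187 library. Col4a2 rose by 0.62 (SE 0.19, adjusted p 0.0400) on the log2 scale in naive mice and differed by 0.34 (SE 0.18, adjusted p 0.178) in DMM. The naive call was lost in 5 of 9 fits that left out 1 library (adjusted p 0.0114 to 0.199).

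The chains Col4a3, Col4a4 and Col4a5, which form type IV of kidney and lung, were at 0.895 to 3.17, 2.83 to 5.99 and 0.475 to 6.46 CPM over all libraries. Col4a3 differed by -0.80 (SE 0.37, adjusted p 0.155) in naive mice and Col4a5 by -1.06 (SE 0.39, adjusted p 0.0563) in DMM, and Col4a6 was at 0 to 1.04 CPM. In DMM edgeR called 0 of the 6 type IV chains, with 2 at an unadjusted p under 0.05; DESeq2 called Col4a5, and limma voom called Col4a1 as higher and Col4a5 as lower. DESeq2 and limma voom each called Col4a1 beside Col4a2 in naive mice.

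The 8 endothelial genes summed to 249 to 584 CPM after AP20187 and 122 to 203 after vehicle in DMM mice, and to 330.0 to 1024 against 103 to 577 in naive mice, with none at 0. Naive vehicle mouse 4 alone held the upper value of its group, and the others were at 103 to 194 CPM, below every naive AP20187 library. Of them 4 of 8 passed as higher in DMM (Pecam1, Tek, Emcn and Vwf) and 3 of 8 in naive mice (Tek, Emcn and Vwf), where DESeq2 called 4 and 5 and limma voom 5 and 8, all higher. The 8 pericyte and smooth muscle genes summed to 291 to 442 CPM against 292 to 404 in DMM and to 340.1 to 727 against 302 to 653 in naive mice, where vehicle mouse 4 again held the upper value and the others were at 302 to 409 CPM. In each comparison edgeR called none of these 8, with 1 (Abcc9) called by DESeq2 and at an unadjusted p under 0.05, while limma voom called 4 in DMM and 3 in naive mice. Their part in the type IV results was not tested.

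Type VI is the beaded filament collagen, made of the chains Col6a1, Col6a2 and one of Col6a3 to Col6a6. Col6a1 was at 119.5, 91.5, 112, 116 and 87.8 CPM in DMM mice given AP20187 and at 57.3, 53.1, 67.7, 76.2 and 163 CPM in those given vehicle. Naive mice had Col6a1 at 76.3, 143, 102 and 79.9 CPM after AP20187 and at 50.6, 43.9, 135, 182 and 35.1 CPM after vehicle. In the vehicle groups mouse 64 and mice 3 and 4 stood far above the rest. The log2 fold changes were 0.34 (SE 0.40, adjusted p 0.592) and 0.17 (SE 0.42, adjusted p 0.810).

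Col6a2 was at 131, 75.6, 138, 114 and 98.4 CPM in DMM mice given AP20187 and at 56.7, 60.1, 72.3, 74.1 and 167 CPM in those given vehicle. Naive mice had Col6a2 at 81.3, 166, 132 and 68.4 CPM after AP20187 and at 50.3, 56.7, 149.7, 219 and 41.9 CPM after vehicle. Its log2 fold changes were 0.37 (SE 0.42, adjusted p 0.570) and 0.11 (SE 0.45, adjusted p 0.887), and those of Col6a3 0.69 (SE 0.38, adjusted p 0.204) and 0.38 (SE 0.40, adjusted p 0.541). The log2 fold changes of the 6 type VI chains ran from 0.32 to 1.05 in DMM and from 0.07 to 0.54 in naive mice, and edgeR called none. Against DMM vehicle mice 63 and 64 alone, those of Col6a1 and Col6a2 were negative, as given below, but of these 2 mice mouse 64 lay above and mouse 63 below every AP20187 library for both genes. No type VI chain had an unadjusted p under 0.05 in either comparison, DESeq2 called none, and limma voom called Col6a3 in DMM and none in naive mice.

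Col28a1 (chromosome 6, 7997808 to 8192617) encodes the chain of type XXVIII, a beaded collagen known from non-myelinating glia and nodes of peripheral nerve. Col28a1 was at 19.3, 42.3, 49.5, 40.1 and 27.4 CPM in DMM mice given AP20187 and at 95.5, 81.7, 73.9, 68.5 and 42.5 CPM in those given vehicle. Naive mice had Col28a1 at 52.3, 36.5, 52.7 and 48.5 CPM after AP20187 and at 90.9, 97.3, 105, 44.1 and 57.1 CPM after vehicle. In DMM 4 of 5 vehicle libraries lay above all AP20187 libraries, with vehicle mouse 64 the exception, and in naive mice 4 of 5 did, with vehicle mouse 4 the exception. Col28a1 differed by -1.02 (SE 0.27, adjusted p 0.0142) on the log2 scale in DMM and by -0.73 (SE 0.29, adjusted p 0.110) in naive mice. It passed in all 10 DMM fits without 1 library (adjusted p 0.00387 to 0.0465), the only member called in DMM of which this was so.

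The 5 non-myelinating Schwann cell genes summed to 272 to 1019 CPM after AP20187 and 539 to 2119.7 after vehicle in DMM mice, and to 442 to 1409 against 1218 to 2089.9 in naive mice. Of these 5, Ngfr, L1cam and Ncam1 passed as lower in DMM, none was called in naive mice by edgeR, DESeq2 or limma voom or had an unadjusted p under 0.05, and none was at 0. The 8 satellite glia genes summed to 1926 to 4059 CPM against 2608 to 5365 in DMM and to 3112 to 3931 against 2570.1 to 4219 in naive mice; of these, Ednrb passed as lower in both comparisons and Cadm1 in DMM. DESeq2 and limma voom called Cadm1 as lower in naive mice too, and limma voom also called Kcnj10 as lower and Slc1a3 as higher in DMM. The sums of both lists overlapped between AP20187 and vehicle in each comparison. Their part in the Col28a1 result was not tested.

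The short-chain collagens form hexagonal networks. Col8a1 (chromosome 16, 57444621 to 57575100) encodes a chain of type VIII, known from vessel walls and subendothelial matrix. Col8a1 was at 81.0, 59.5, 75.8, 67.7 and 54.5 CPM in DMM mice given AP20187 and at 18.7, 16.2, 29.9, 27.7 and 44.5 CPM in those given vehicle. Naive mice had Col8a1 at 32.2, 82.9, 78.9 and 37.2 CPM after AP20187 and at 10.9, 12.6, 35.4, 62.4 and 11.8 CPM after vehicle. Each DMM AP20187 library lay above each DMM vehicle library, while the naive groups overlapped. Col8a1 rose by 1.30 (SE 0.44, adjusted p 0.0400) on the log2 scale in DMM and differed by 1.12 (SE 0.46, adjusted p 0.119) in naive mice. The DMM call was lost in 8 of 10 fits without 1 library (adjusted p 0.0171 to 0.0992). Its partner Col8a2 differed by 0.47 (SE 0.45, adjusted p 0.496) and 0.09 (SE 0.48, adjusted p 0.922), and Col10a1, the chain of hypertrophic cartilage, was at 0 to 0.726 CPM. Col10a1 lies wholly within Nt5dc1 on the opposite strand, and the strand setting of the counting is not given in the sources used here.

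Fibril-associated collagens coat the surface of fibrils. Col14a1 (chromosome 15, 55171146 to 55384199) encodes the chain of type XIV, known from fibroblasts. Col14a1 was at 46.6, 29.9, 43.0, 55.1 and 34.0 CPM in DMM mice given AP20187 and at 27.9, 22.6, 27.2, 23.2 and 31.5 CPM in those given vehicle. Naive mice had Col14a1 at 41.9, 61.9, 30.0 and 45.2 CPM after AP20187 and at 19.6, 21.6, 31.2, 38.1 and 13.0 CPM after vehicle. In both comparisons the AP20187 libraries lay mostly above vehicle, with 1 vehicle library overlapping in DMM and mice 3 and 4 overlapping in naive. Col14a1 rose by 0.86 (SE 0.27, adjusted p 0.0444) on the log2 scale in naive mice and differed by 0.66 (SE 0.25, adjusted p 0.0650) in DMM. The naive call was lost in 6 of 9 fits without 1 library (adjusted p 0.0143 to 0.177). Col12a1, of type XII of sheaths and tendon, differed by 1.15 (SE 0.47, adjusted p 0.0780) in DMM and 0.24 (SE 0.49, adjusted p 0.764) in naive mice. DESeq2 and limma voom called Col12a1 and Col14a1 as higher in DMM.

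Type IX is known from the surface of cartilage fibrils, with 1 chain each from Col9a1, Col9a2 and Col9a3. Col9a2 (chromosome 4, 120896582 to 120912519) was called in DMM. Col9a2 was at 7.26, 11.4, 7.64, 5.48 and 2.24 CPM in DMM mice given AP20187 and at 12.5, 7.43, 12.3, 31.2 and 29.9 CPM in those given vehicle. Naive mice had Col9a2 at 5.13, 6.20, 5.80 and 6.40 CPM after AP20187 and at 12.6, 9.87, 25.7, 8.61 and 6.79 CPM after vehicle. In DMM 4 of 5 vehicle libraries lay above all AP20187 libraries, mice 63 and 64 the highest, and vehicle mouse 33 lay among them. In naive mice each AP20187 library lay below each vehicle library. Col9a2 differed by -1.45 (SE 0.44, adjusted p 0.0247) in DMM and by -1.11 (SE 0.47, adjusted p 0.128) in naive mice, and the DMM call was lost in 3 of 10 fits without 1 library (adjusted p 0.0170 to 0.0643). DESeq2 also called Col9a2 in DMM, and limma voom did not.

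Col9a3 (chromosome 2, 180239583 to 180263982) was called in naive mice. Col9a3 was at 0.561, 0.643, 1.72, 1.17 and 0.866 CPM in DMM mice given AP20187 and at 2.08, 1.25, 1.77, 2.76 and 1.49 CPM in those given vehicle. Naive mice had Col9a3 at 0.519, 0.794, 0.403 and 0.518 CPM after AP20187 and at 1.68, 1.21, 2.08, 1.79 and 0.842 CPM after vehicle. The naive groups did not overlap, the levels being low in all groups. Col9a3 differed by -1.44 (SE 0.39, adjusted p 0.0241) in naive mice and -0.91 (SE 0.35, adjusted p 0.0672) in DMM, and the naive call was lost in 3 of 9 fits without 1 library (adjusted p 0.0225 to 0.0721). The 8 chondrocyte genes summed to 58.0 to 133 CPM after AP20187 and 76.1 to 111 after vehicle in DMM mice, and to 58.0 to 92.7 against 65.8 to 108 in naive mice. Of these 8, 6 were tested. In DMM edgeR called Cnmd as lower, DESeq2 called Cnmd and Hapln1 as lower, and limma voom called these as lower and Comp and Sox9 as higher. In naive mice edgeR called none, with 3 at an unadjusted p under 0.05, while DESeq2 called Acan and Cnmd as lower and limma voom Cnmd as lower and Sox9 as higher. Their part in the type IX results was not tested. The cartilage matrix genes Matn1 and Matn3 were at 0 in every library of DMM with AP20187 and naive with vehicle. In the same class Col19a1 was at 0 to 1.43 CPM after AP20187 and 1.68 to 4.17 after vehicle in naive mice without passing, and Col22a1, known from the junction of muscle and tendon, differed by -1.90 (SE 0.74, adjusted p 0.0689) in DMM, where DESeq2 and limma voom called it.

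Col23a1 (chromosome 11, 51180747 to 51474745) encodes a transmembrane collagen. Col23a1 was at 23.5, 23.3, 23.2, 33.5 and 14.7 CPM in DMM mice given AP20187 and at 35.9, 33.7, 48.7, 28.8 and 37.6 CPM in those given vehicle. Naive mice had Col23a1 at 24.9, 40.4, 44.9 and 28.4 CPM after AP20187 and at 31.1, 25.7, 41.6, 41.7 and 23.2 CPM after vehicle. In DMM 4 of 5 AP20187 libraries lay below all of vehicle, and in naive mice the groups overlapped. Col23a1 differed by -0.64 (SE 0.23, adjusted p 0.0479) in DMM and 0.09 (SE 0.24, adjusted p 0.834) in naive mice. The DMM call was lost in 8 of 10 fits without 1 library (adjusted p 0.0170 to 0.128).

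Col7a1 (chromosome 9, 108782654 to 108813943) encodes the chain of type VII, the anchoring fibril beneath epithelia. Col7a1 was at 2.21, 7.49, 7.08, 2.70 and 3.24 CPM in DMM mice given AP20187 and at 5.36, 5.28, 3.07, 1.62 and 3.09 CPM in those given vehicle. Naive mice had Col7a1 at 1.21, 2.20, 1.93 and 2.27 CPM after AP20187 and at 4.70, 4.23, 7.94, 5.84 and 5.01 CPM after vehicle. In naive mice each AP20187 library lay below each vehicle library, while in DMM the groups overlapped, with AP20187 mice 59 and 60 the highest of the 10. Col7a1 differed by -1.54 (SE 0.41, adjusted p 0.0213) in naive mice and 0.30 (SE 0.37, adjusted p 0.599) in DMM, and the naive call was lost in 2 of 9 fits without 1 library (adjusted p 0.0298 to 0.0799). Its interaction value, the AP20187 difference in DMM minus that in naive mice, was 1.85 (SE 0.54, adjusted p 0.288), the smallest unadjusted p of any member but not past the threshold.

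The remaining members did not pass the edgeR test in either AP20187 comparison, and limma voom called Col17a1 and Col20a1 as higher and Col25a1 as lower in DMM. Col15a1 and Col18a1, the multiplexins of basement membrane zones, were at 20.5 to 103 and 13.5 to 37.9 CPM over all libraries. Col15a1 differed by -0.12 (SE 0.41, adjusted p 0.873) in DMM and 0.79 (SE 0.43, adjusted p 0.227) in naive mice. Col18a1, the source of endostatin, differed by -0.44 (SE 0.26, adjusted p 0.234) and 0.06 (SE 0.27, adjusted p 0.906). Col16a1, a fibril-associated chain, was at 24.1 to 30.1 CPM after AP20187 and 31.4 to 52.2 CPM after vehicle in naive mice, without overlap, at -0.45 (SE 0.23, adjusted p 0.208). Col24a1 and Col11a2, of the fibrillar class, were at 5.71 to 26.2 and 1.80 to 13.3 CPM. The transmembrane chains Col13a1, Col17a1 and Col25a1 were at 0 to 1.24, 0 to 0.952 and 2.36 to 19.5 CPM, and Col26a1 was at 1.14 to 6.24 CPM. Col20a1, at 0.772 to 2.48 CPM, shares 741 bases of 1 strand with the gene 9230112E08Rik, and reads of the 2 could be split between them.

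DMM was compared with naive mice under vehicle and under AP20187. Under vehicle edgeR, DESeq2 and limma voom each called 0 of 44 collagen genes, none had an unadjusted p under 0.05, and the share of all tested genes called by edgeR was 0%. The members nearest to the threshold were Col7a1, at -0.59 (SE 0.37, adjusted p 1.00), and Col2a1, at 0.78 (SE 0.51, adjusted p 1.00). With mice 63 and 64 as the only DMM vehicle mice these were -1.20 (adjusted p 0.154) and 1.499 (adjusted p 0.114), and with mice 32 to 34 only -0.28 (adjusted p 1.00) and 0.03 (adjusted p 1.00). Col1a1 gave 1.01 (adjusted p 0.208) with the first set and -0.73 (adjusted p 1.00) with the second. Under AP20187 edgeR called 0 of 44 against 0.702% of all genes, with 5 members at an unadjusted p under 0.05, while DESeq2 and limma voom each called Col7a1 as higher in DMM. Of the 8 skeletal muscle genes 2 (Actn3 and Tnnc2) passed as lower in DMM in this comparison by edgeR, 7 by DESeq2 and 8 by limma voom, and their part in the collagen values was not tested. Col7a1 differed under AP20187 by 1.26 (SE 0.40, adjusted p 0.141) and Col23a1 by -0.55 (SE 0.24, adjusted p 0.257). For the interaction edgeR, DESeq2 and limma voom each called 0 of 44, with 2 members (Col7a1 and Col23a1) at an unadjusted p under 0.05 and 0.114% of all genes called by edgeR. Shares of all genes at an unadjusted p under 0.05 are not given here, so these member counts are not read as results. The interaction value of Col23a1 was -0.73 (SE 0.33, adjusted p 0.620) and that of Col28a1 -0.29 (SE 0.40, adjusted p 0.937). For the other 6 members called in DMM or naive mice alone, Col5a1, Col8a1, Col9a2, Col9a3, Col14a1 and Col4a2, it lay between -0.34 and 0.53 (adjusted p 0.903 to 0.981), so a call in one surgery group and not in the other was not shown to be a difference between them.

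The sign of many collagen differences in DMM differed between the 2 sets of vehicle mice. These sets were told apart with collagen values known, so opposite signs against them are a description and not a test. The mean of Col1a1 was 147 CPM in DMM with AP20187, 274 in vehicle mice 63 and 64 and 84.8 in vehicle mice 32 to 34. Its log2 fold change was -0.89 (SE 0.50) against the first of these sets and 0.79 (SE 0.44) against the second, neither past the threshold. Col1a2 gave -0.62 and 0.67, Col3a1 -0.48 and 1.01, Col6a1 -0.18 and 0.83, and Col6a2 -0.11 and 0.82. For Col6a1 and Col6a2 the values against mice 63 and 64 rested on mouse 64, since mouse 63 lay below every AP20187 library of DMM for both genes. The median of the 11 fibrillar chains was -0.45 against mice 63 and 64 and 0.66 against mice 32 to 34, and 7 of 11 changed sign. Of all 44 members 19 (43.2%) changed sign, as did 34.2% of all tested genes. Of these 19 only Col20a1 passed the threshold against either set. Marker sums differed between these sets as well. The fibroblast sum was 4984 and 8061 CPM in mice 63 and 64 against 1339.9 to 2280.4 in mice 32 to 34, and the macrophage sum 369 and 615 against 150.2 to 204. The marrow granulocyte sum was 2340.2 and 6740.3 against 355 to 1787 CPM, and the satellite glia sum 5365 and 4790.0 against 2608 to 3494. Sums were lower in mice 63 and 64 for the sensory neuron genes (11405 and 5660.1 against 11783 to 14063 CPM) and the non-myelinating Schwann cell genes (1008 and 539 against 1632 to 2119.7 CPM). In each of these 6 lists, chosen after their values were seen, the 2 sets did not overlap. Nor did they for the chondrocyte sum (91.0 and 110.8 against 76.1 to 86.4 CPM) or the osteoclast sum (197 and 633 against 38.0 to 172 CPM). The low skin epithelium sum (6.81 and 4.68 against 3.06 to 4.56 CPM) did not overlap either. The part of all these lists in the collagen values was not tested.

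Some members kept their direction against both sets. Col28a1 gave -0.59 against mice 63 and 64 (adjusted p 0.372) and -1.23 against mice 32 to 34 (adjusted p 0.00461). Col5a1 gave 0.63 and 1.57 and Col8a1 0.92 and 1.65, each past the threshold only against mice 32 to 34 (adjusted p 0.00589 and 0.0237). Col4a1 gave 0.42 and 0.48 and Col4a2 0.36 and 0.33, with none past the threshold. Col9a2 was called only against mice 63 and 64, at -2.12 (adjusted p 0.0200), and gave -0.66 against the others. Col23a1 gave -0.47 (adjusted p 0.425) and -0.74 (adjusted p 0.0354). Against mice 63 and 64 alone 1 of 44 members was called, where 4.73% of all genes were, and against mice 32 to 34 alone 5 of 44 were, where 36.3% of all genes were. Among these 5 was Col20a1, at 0.93 (adjusted p 0.0336), which changed sign and gave -0.17 against mice 63 and 64.

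**Figure D4:**
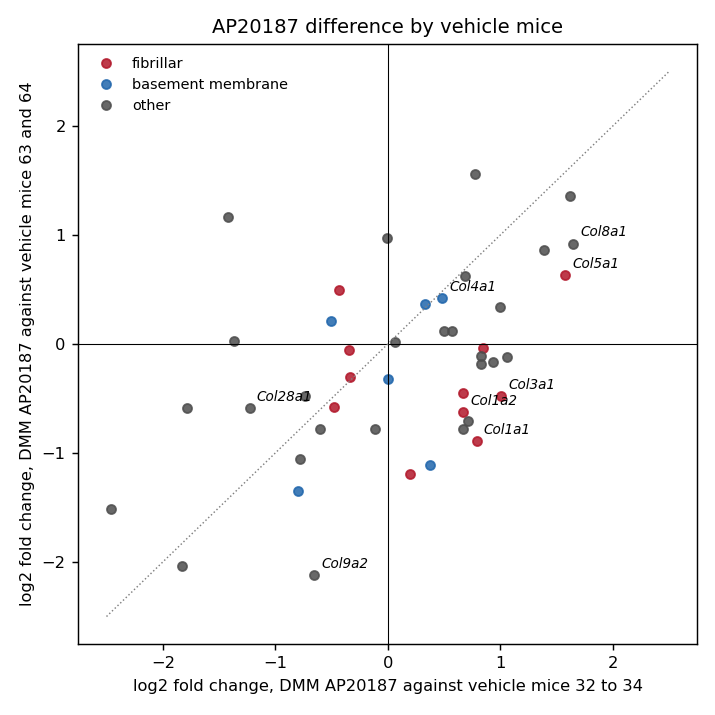
Log2 fold change of DMM with AP20187 against DMM vehicle mice 32 to 34 (horizontal) and against DMM vehicle mice 63 and 64 (vertical) for the 44 collagen genes, coloured by class; the dotted line marks equal values. Col1a1, Col1a2 and Col3a1 lie to the right of 0 and below 0, whereas Col8a1, Col5a1 and Col4a1 lie above 0 on both axes and Col28a1 and Col9a2 below 0 on both.

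Chains that share a molecule or a fibril were compared from library to library, as deviations of log2(CPM + 0.5) from the group mean over the 19 libraries. Col1a1 and Col3a1 gave Pearson's r = 0.98 and Spearman's rho = 0.96 (permutation p 1e-05 for both, the smallest that 100000 permutations within groups can give), and r was 0.97 without the 2 farthest libraries. Among the 22777 other tested genes, Col3a1 and Col1a2 were the first and second most correlated with Col1a1, the latter at r = 0.98. Col6a1 and Col6a2 gave r = 0.97, Col6a1 and Col6a3 0.94, Col8a1 and Col8a2 0.93, Col4a1 and Col4a2 0.87, and Col5a1 and Col5a2 0.82. After Benjamini-Hochberg adjustment over the 9 pairs compared, these 7 had permutation p of 3e-05 to 0.00145 for r and 4.5e-05 to 0.00413 for rho. They fell to between 0.70 and 0.97 without the 2 farthest libraries. By the same ranking Col6a2 was number 4 and Col6a3 number 26 for Col6a1, Col8a2 number 24 for Col8a1, Col4a2 number 27 for Col4a1, and Col5a2 number 1110 for Col5a1.

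For 2 pairs of lower level the test did not pass. Col9a2 and Col9a3 gave r = 0.35 and rho = 0.31 (adjusted permutation p 0.238 and 0.289), and r = 0.29 without the 2 farthest libraries. Col4a3 and Col4a4, which start 71 bases apart, gave r = 0.32 and rho = 0.26 (adjusted permutation p 0.315 and 0.369), and 0.15 without them. In the ranking Col9a3 was number 5872 for Col9a2 and Col4a4 number 2227 for Col4a3. All pairs share their libraries, so depth and tissue content of a library enter both genes of a pair.

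**Figure D5:**
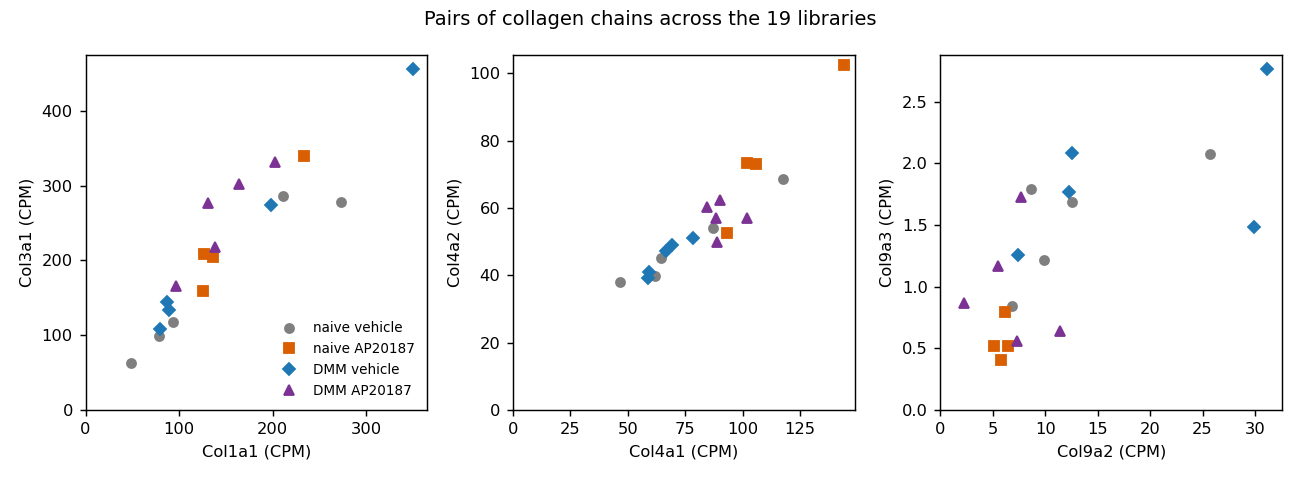
CPM of Col3a1 against Col1a1 (left), Col4a2 against Col4a1 (middle) and Col9a3 against Col9a2 (right) in the 19 libraries, with symbols by group. The points of the left and middle panels lie near a line, with r = 0.98 and 0.87 after removal of group means, and those of the right panel scatter, with r = 0.35.

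Genes of collagen making were read from lists of the same fit. Of 21 enzymes and carriers that process collagen chains, 5 passed in DMM, 2 higher and 3 lower, with a list median log2 fold change of 0.11, and 3 passed in naive mice, all higher, with a median of 0.27. DESeq2 called 7 in DMM and 5 in naive mice and limma voom 14 and 8; in naive mice both called P4ha3 as lower, and limma voom Sec23a. P4hb, the beta subunit of prolyl 4-hydroxylase and a general protein disulfide isomerase, rose by 1.29 (SE 0.22, adjusted p 0.00104) in DMM and 1.08 (SE 0.23, adjusted p 0.00739) in naive mice, from 211 ± 67.6 to 516 ± 111 CPM (SD, n = 5) in DMM. Plod3, a lysyl hydroxylase, rose by 0.73 (SE 0.15, adjusted p 0.00246) and 0.59 (SE 0.15, adjusted p 0.0194). P4ha3, a catalytic subunit of prolyl 4-hydroxylase, differed by -0.82 (SE 0.22, adjusted p 0.0155) in DMM, and Plod1 rose by 0.61 (SE 0.19, adjusted p 0.0429) in naive mice.

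Among 14 procollagen proteinases and crosslinking enzymes, 1 passed in DMM and 2 in naive mice, all higher, with list medians of 0.36 and 0.25. In DMM DESeq2 called 3, with Tll2 and Adamts3 lower, and limma voom called 11, with Tll2, Adamts3, Pcolce2 and Loxl4 lower. Lox, the lysyl oxidase that crosslinks fibrils, rose by 0.90 (SE 0.28, adjusted p 0.0266) in DMM and 1.10 (SE 0.29, adjusted p 0.0214) in naive mice, and Loxl2 rose by 1.36 (SE 0.42, adjusted p 0.0449) in naive mice. Of 15 fibril-binding proteoglycans and partners, 1 passed in each comparison. This was Bgn, encoding biglycan, which rose by 1.30 (SE 0.42, adjusted p 0.0329) and 1.47 (SE 0.44, adjusted p 0.0382), with list medians of 0.41 and 0.57. Of this list DESeq2 called 1 in DMM and 2 in naive mice and limma voom 7 and 4, all higher. Of 16 laminins and basement membrane partners, 1 passed in DMM, Lamb1, at -0.65 (SE 0.18, adjusted p 0.0168), with a list median of -0.24. Beside Lamb1 as lower in DMM, DESeq2 called Lamb3 as higher, and limma voom called Lamb2 and Lamb3 as higher. In naive mice edgeR and DESeq2 called 0 of the 16, 2 had an unadjusted p under 0.05, and limma voom called Lama4 and Lama5; the list median was 0.16.

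Of 10 collagen receptors, 2 passed in DMM and 1 in naive mice, with list medians of 0.27 and 0.15. DESeq2 called 2 and 1 of these receptors and limma voom 5 and 2. Lair1, an inhibitory receptor of leukocytes, rose by 1.54 (SE 0.39, adjusted p 0.0105) and 1.56 (SE 0.41, adjusted p 0.0210), and Ddr1, a receptor tyrosine kinase, differed by -0.88 (SE 0.25, adjusted p 0.0178) in DMM. Of 11 profibrotic ligands and receptors, 4 passed in DMM, 2 higher and 2 lower, and 2 passed in naive mice, both higher, with list medians of 0.59 and 0.33. DESeq2 called 6 in DMM and 3 in naive mice and limma voom 8 and 6. Tgfbr2, a receptor of TGF-beta, rose by 0.99 (SE 0.31, adjusted p 0.0282) and 1.15 (SE 0.32, adjusted p 0.0288). Pdgfa, a growth factor for fibroblasts, differed by -0.75 (SE 0.16, adjusted p 0.00368) and Tgfb2 by -0.89 (SE 0.27, adjusted p 0.0247) in DMM. Over all tested genes the medians were -0.10 in DMM and -0.07 in naive mice, with 23.8% and 11.2% called. The part of the granulocyte and endothelial genes given above in these lists was not tested.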

How the data were processed

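Sequencing libraries of poly(A) RNA were made with a stranded kit, per the labels' protocols. The submitters' processing notes name cutadapt, HISAT2, StringTie and GRCm39 without versions or roles. The annotation release and the strand setting of counting are not given in the sources used here. The deposited values are raw counts for each gene, in whole numbers, and FPKM, scaled by the authors to gene length and library size. Counts of the 44 members were equal in both deposited tables.

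Counts were tested in R 4.3.3 with edgeR 4.0.16 (quasi-likelihood F test, TMM, filterByExpr minimum count 10, two-sided) in 1 model of the 4 groups and 19 libraries (15 residual degrees of freedom). P-values were adjusted by the Benjamini-Hochberg method across the 22778 genes tested, with a threshold of 0.05. FPKM as deposited by the authors served to compare levels between genes, and log2(FPKM + 1) with limma 3.58.1, limma voom and DESeq2 1.42.0 were alternatives. Libraries are single mice. P-values measure the spread between these mice, and counting intervals and floors (3 counts per library) cover counting error only.

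Members and lists were chosen with earlier results of these data known. Library values are given for members called in a comparison whose mean reached 1 CPM in either group (up to 8 by adjusted p), and for the most abundant: the 3 highest by FPKM among fibrillar and among other types, with Col4a1 and Col4a2. Where none was called, the 2 with the smallest p are named. Up to 3 list genes per comparison are named by adjusted p. A called gene of the profibrotic list is not reported here by name. Members outside this rule were chosen after their values were seen.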

Additional observations from a re-analysis of the deposited data

Results flagged for a closer look

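In 60 groups of libraries (the main members in each of the 4 groups), 3 held a library whose gap to the nearest other exceeded Dixon's 95% critical value. Chance alone gives about 1 in 20 such groups. Col1a1 in naive AP20187 mouse 3 was at 233 CPM, and the 3 others were at 125 to 137 CPM. In DMM vehicle mouse 64 Col6a1 was at 163 CPM, against 53.1 to 76.2 CPM in the 4 others, and Col6a2 was at 167 CPM, against 56.7 to 74.1 CPM.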

How the results depend on the processing

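None of the 9 calls (5 in DMM, 4 in naive mice) changed direction under an alternative run for it. The count of members called in DMM (5) was 8 with only the groups compared, 11 with DESeq2, 15 with limma voom and sample weights, 8 on log2(FPKM + 1), 3 without the low-count filter and 1 against vehicle mice 63 and 64. Leaving out 1 library gave 1 to 6: 1 without DMM AP20187 58 or 62, 2 without DMM vehicle 32, 33 or 34, and 3 without DMM AP20187 59 or 60 or DMM vehicle 63. In naive mice (4) it was 2 without TMM, 2 without the low-count filter and 8 with limma voom. Leaving out 1 library gave 1 to 8: 1 without naive AP20187 1 or 3 or naive vehicle 1, 2 without naive AP20187 4 or naive vehicle 2 or 5, and 8 without naive vehicle 4. DMM against naive with AP20187 gave 1 with DESeq2 and 1 with limma voom in place of 0. The cause was not tested, except that fewer libraries enter where some are left out.

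Counts over all genes moved by more than 1.5 times in these cases. In DMM the count of 5410 became 10676 with limma voom, 1156 against vehicle mice 63 and 64, 8450 against mice 32 to 34, and 3212, 3419 and 3407 without DMM AP20187 58, DMM vehicle 32 or DMM vehicle 33. In naive mice 2548 became 4356 with DESeq2, 4542 with limma voom, 4147 on log2(FPKM + 1), and 994 to 1566 without naive AP20187 1 or 3 or naive vehicle 1, 2 or 5. For DMM against naive with AP20187, 160 became 73 without the low-count filter, 1109 with DESeq2, 2456 with limma voom, 1220 on log2(FPKM + 1) and 43 to 269 without 1 library. With vehicle, 0 became 1 with limma voom and 541 with mice 63 and 64 only. For the interaction, 26 became 13 without the low-count filter, 224 with DESeq2, 53 with limma voom, 56 on log2(FPKM + 1), 90 with mice 63 and 64 only and 12 to 57 without 1 library.

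Naive groups share mouse numbers. Same-numbered mice correlated at 0.07, 0.55, -0.12 and 0.40 (mice 1, 3, 4 and 5), and only mouse 3 correlated best with its own number, so the numbers are not taken to pair mice. With the replicate block 3 members were called in naive mice (Col4a2, Col7a1 and Col8a1) and 0 for the interaction, and 1209 of all genes in place of 2548 and 10 in place of 26.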
